A study of Ascaris suum with 12 samples.

Results

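Messages of the male spermatogenesis region of Ascaris suum were compared with those of the female early and late pachytene regions across 61820 transcripts of 18025 genes. Ascaris suum is a large roundworm of the pig intestine that discards stretches of its genome from the cells of the body and keeps them in the germline. Adult worms labelled as North American wildtype were taken from pig intestines without treatment, and total RNA of dissected germline regions was sequenced after ribosomal depletion. The comparison uses 3 of the 12 samples of the series, with 1 library per region. The other 7 germline libraries (from the male the mitotic and post-meiotic regions, spermatids and seminal vesicle, from the female the mitotic region, diplotene and oocyte) are used only to follow the messages. The labels give no number of worms, no age and no statement on pooling.

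Both sexes carry out meiosis in these tissues, but the products differ. The nematode testis makes crawling, amoeboid sperm that move by assembling filaments of major sperm protein (MSP) instead of actin. The ovary holds its germ cells in the long pachytene stage of meiotic prophase while they build up messages for the oocyte and the eggshell. In pachytene, homologous chromosomes are paired along their length and recombine. The male library is labelled by its process and the female libraries by a stage, so sex and stage cannot be told apart in any difference below. Nor can fewer cells of a type be told apart from less RNA per cell in such bulk tissue.

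Values are RPKM, read numbers scaled by transcript length and by library depth. A transcript was called higher or lower in spermatogenesis when log2(RPKM + 1) differed by at least 4-fold from both pachytene libraries. The higher side, which for lower calls is the lower of the pachytene values, also had to reach 10 RPKM. There is no replicate, so no p-value can be given, and the size of a difference is all that a call rests on. Of 17638 transcripts at 10 RPKM or more in either pachytene library, 17572 (99.6%) differed by 1.5-fold or less between those libraries on the same scale, so the second library adds little to the rule. Of all transcripts, 34.9% share part of their span with another gene that is not on the same strand. Since it is not stated that reads were counted by strand, the levels of such genes cannot be separated.

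By this rule 6782 transcripts of 1895 genes were higher in spermatogenesis (11.0% of all transcripts and 10.5% of genes) and 10035 transcripts of 3033 genes were lower (16.2%). The balance of these counts depends on how the libraries are scaled. Rescaling by median ratios over the 15277 transcripts detected at 1 RPKM or more in all 10 libraries raises spermatogenesis relative to early pachytene by 1.79 on the log2 scale (3.47-fold) and relative to late pachytene by 1.78. The rescaled counts are 11899 higher (19.2%) and 4050 lower (6.55%, with 1257 genes or 6.97% of genes), so the share of calls that are higher moves from 40.3% to 74.6%. All 6782 deposited higher calls and all 4050 rescaled lower calls hold under both scalings. This follows from the direction of the rescaling, which raises spermatogenesis and lowers both pachytene libraries, so it is no check of the calls. The words higher and lower are used from here on for these 2 sets unless a scaling is named. Over all transcripts the median difference from early pachytene is −0.39 as deposited and 0.21 rescaled, and gene groups are read beside these values.

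**Figure D1:**
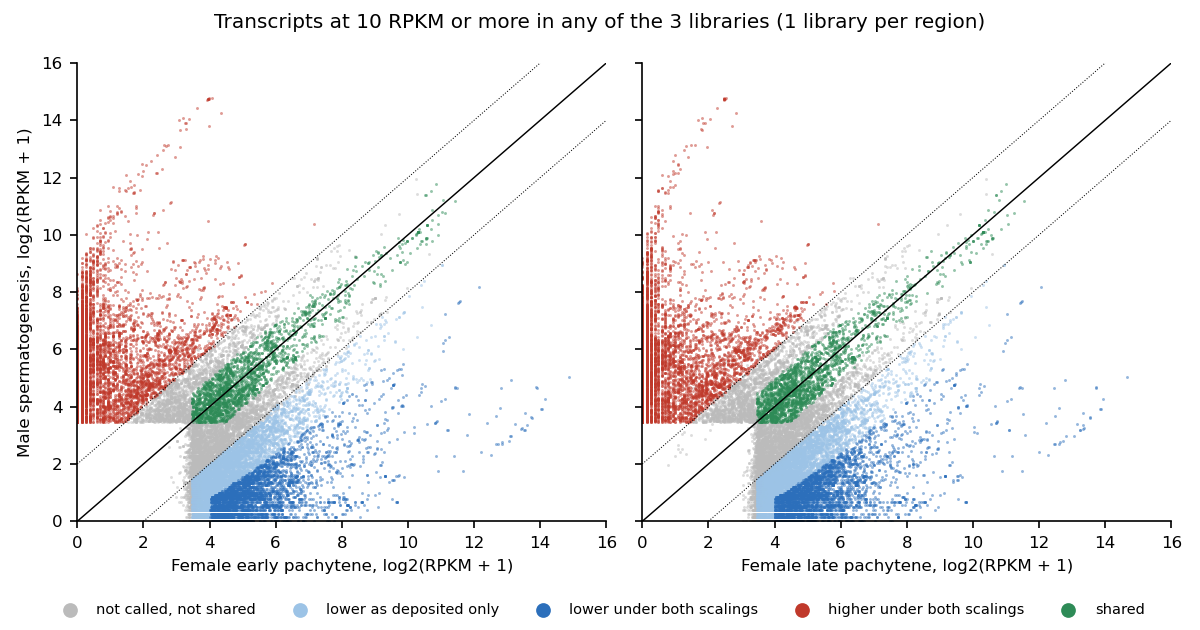
Each point is a transcript at 10 RPKM or more in any of the 3 libraries (n = 25348), with its level in spermatogenesis on the vertical axis and in early (left) or late (right) pachytene on the horizontal axis, both as log2(RPKM + 1). The solid line marks equal levels and the dotted lines 4-fold. Red points are the 6782 higher transcripts, dark blue the 4050 lower under both scalings, light blue those lower only as deposited, and green the 2454 shared. Many red points lie against the left edge, and the uppermost run parallel to the line of equality.

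The rule chose the higher and the lower set on these same libraries, so a gap between their levels comes from it. The higher set has a median of 46.5 RPKM in spermatogenesis, 0.3 in early pachytene and 0.2 in late pachytene. Of its 6782 transcripts, 300 were at 10 RPKM or more in early pachytene. The lower set has a median of 0.8 RPKM in spermatogenesis against 36.45 in early and 36 in late pachytene. The transcripts nearest the 4-fold bound show where the sets begin. A ubiquitin carboxyl-terminal hydrolase 7 transcript (AgE26_g002_t02) was just inside with 35.4 RPKM in spermatogenesis against 7.5 and 8.1, and an integrator complex subunit 3 transcript (AgB02_g418_t02) was just outside with 25.3 against 5.6 and 5.3. On the lower side as deposited, an endoplasmic reticulum membrane protein transcript (AgR006_g222_t04) was just inside with 6 RPKM against 27.4 and 27, and a mig-15 kinase transcript (AgR008_g130_t01) just outside with 18.2 against 77.1 and 75.7.

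Among genes with a product description, sperm motility messages showed the largest higher differences. Alpha-MSP (AgB02_g504_t01, scaffold AgB02, 8488070 to 8488662 on the plus strand, 2 exons), the building block of the sperm filaments, was at 13039.6 RPKM in spermatogenesis, 7.6 in early and 2.5 in late pachytene, a log2 difference of 10.57 and 11.86. A beta-MSP transcript (AgE02_g037_t01) was at 14397.9 RPKM against 14.8 and 5.5, and another (AgE02_g017_t01) at 8508.3 against 7.7 and 2.9. Both beta-MSP genes are marked as lost from somatic cells, and the first lies within the span of the second on the other strand, so their levels cannot be separated. MFP2 (AgR008_g015_t01), which promotes MSP fiber assembly, was at 2940.7 RPKM against 1.8 and 0.4. MFP3 (AgR012_g244_t01) was at 1578.4 RPKM against 1.0 and 0.3. MFP1-beta (AgR003_g211_t01), named for the MSP fiber protein that slows fiber growth, was at 1944.8 RPKM against 1.4 and 0.4. The neighbouring MFP1-beta transcript AgR003_g210_t02 lies over it on the other strand, and its 1551.8 RPKM against 0.9 and 0.3 cannot be separated from it.

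Across the MSP and fiber protein list, 142 of 176 transcripts were higher and 14 lower as deposited, and 152 and 11 rescaled, with a median log2 difference of 6.33. All 27 transcripts named for MFP (15 genes) were higher. All but 1 of the members that went the other way are motile sperm domain-containing proteins, a family named for carrying the same fold. Of these 18 transcripts, 13 were lower as deposited and 11 rescaled. Motile sperm domain-containing protein 1 (AgB01_g301_t02) was at 3.3 RPKM in spermatogenesis against 110.0 and 98.1. Without those, 142 of 158 transcripts were higher and 1 was lower as deposited, and none was lower rescaled. MSP genes are near copies of each other, so the split of reads between single MSP transcripts is uncertain.

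Other sperm genes showed the same direction with a wider range. In the list for sperm function and membrane fusion, 62 of 157 transcripts were higher and 17 lower as deposited, and 94 and 1 rescaled (median difference 1.28). Transcripts of sperm-specific protein ZC168.6, named after a Caenorhabditis elegans gene, came from 3 genes on scaffold AgR086 and were at 6705.8, 5066.8 and 4566.5 RPKM in spermatogenesis, with no pachytene value above 6.8. The gene at 5066.8 RPKM lies over the one at 6705.8 on the other strand, so these are not separate levels. Sperm-specific class P protein 19 (AgB02_g503_t01) was at 486.3 RPKM against 0.7 and 0.3. Presenilin spe-4 (AgR004_g065_t04), which in Caenorhabditis elegans is needed for the organelles that deliver MSP to spermatids, was at 111.8 RPKM against 0.1 and 0.0. Testis-specific serine/threonine kinase 4 (AgR007_g237_t03) was at 104.6 RPKM against 0.1 and 0.0. A fer-1 transcript (AgE05_g014_t04), whose Caenorhabditis elegans relative fuses membranous organelles during sperm activation, was at 47.2 RPKM against 0.1 and 0.1. Spermatogenesis-associated protein 13 (AgB01_g068_t01) was the exception by name, at 0.2 RPKM in spermatogenesis against 16.3 and 15.9. Myoferlin (AgE02_g034_t17), a membrane-fusion relative of fer-1, was shared at 42.6, 32.0 and 35.7 RPKM.

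The protein phosphatase and kinase lists had more higher than lower calls under both scalings. Mature nematode sperm neither transcribe nor translate, and protein phosphorylation is a main way for them to be regulated. Of 223 PP1-type and other serine/threonine phosphatase transcripts, 164 were higher and 17 lower as deposited, and 184 and 5 rescaled (median difference 4.31). One PP1 transcript (AgR026_g069_t07) was at 322.5 RPKM against 0.3 and 0.1, and another (AgR017_g146_t03) at 267.2 against 0.1 and 0.1. The list was not uniform, as calcineurin catalytic subunit (AgB02_g199_t01) was at 0.7 RPKM against 40.2 and 39.0 and a PP1-alpha transcript (AgR005_g007_t08) at 1.2 against 36.1 and 34.8. Of 488 tyrosine phosphatase transcripts, 220 were higher and 89 lower as deposited, and 265 and 44 rescaled (median difference 1.82). A Lar-like phosphatase (AgR033_g080_t01) was at 381.6 RPKM against 0.1 and 0.0, whereas tyrosine-protein phosphatase 2 (AgB12_g015_t02) was at 0.4 against 102.5 and 96.7.

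Kinase lists also had more higher than lower calls. Of 367 tyrosine kinase transcripts, 235 were higher and 36 lower as deposited, and 251 and 29 rescaled (median difference 4.34). Those named Fer, Fps or Fes, the group to which the Caenorhabditis elegans sperm-activation kinase SPE-8 belongs, accounted for 162 of the higher transcripts (39 genes) and for none of the lower ones. A Fer transcript (AgR049_g025_t02) was at 733.9 RPKM against 0.6 and 0.2. The kinases RYK (AgR002_g464_t01, 0.3 RPKM against 27.3 and 25.7) and Fyn (AgB08X_g072_t03, 0.7 against 40.6 and 42.0) were lower. Of 191 casein and tau-tubulin kinase transcripts, 137 were higher and 21 lower as deposited, and 145 and 12 rescaled (median difference 4.63). A tau-tubulin kinase 1 transcript (AgB01_g228_t03) was at 525.6 RPKM against 0.9 and 1.0, and a tau-tubulin kinase 2 on an eliminated gene (AgE57_g001_t01) at 204.4 against 0.1 and 0.1. A neighbouring pair of genes of the same family went the other way. Their transcripts AgR007_g013_t08 and AgR007_g012_t02 were at 0.1 and 0.4 RPKM in spermatogenesis and at 33.0 and 20.5 in early pachytene.

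Among the 15 largest higher differences of described genes, several belong to no sperm list. The ATP-binding subunit of the Clp protease (AgB03_g243_t01), a mitochondrial protein-unfolding enzyme, was at 1042.4 RPKM against 0.2 and 0.1. The E1 beta subunit of pyruvate dehydrogenase (AgB02_g353_t02), part of the complex that turns pyruvate into acetyl-CoA, was at 1061.7 RPKM against 0.6 and 0.1. The E2 subunit of that complex (AgR073_g007_t04), looked up after its values were seen, was at 672.1 RPKM against 0.3 and 0.1. GATA zinc finger domain-containing protein 14 (AgR003_g283_t01) was at 1123.4 RPKM against 0.5 and 0.2. The table lists many further genes only as hypothetical proteins, and 22 of them had a larger difference than the last of these 15, with 5 above alpha-MSP. The hypothetical protein AgB01_g042_t01, looked up after its values were seen, was at 28079.5 RPKM against 15.8 and 4.6, and AgB01_g057_t02 at 16304.0 against 7.5 and 2.2. On the lower side 2 such genes were above the last of the 15 described ones.

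**Figure D2:**
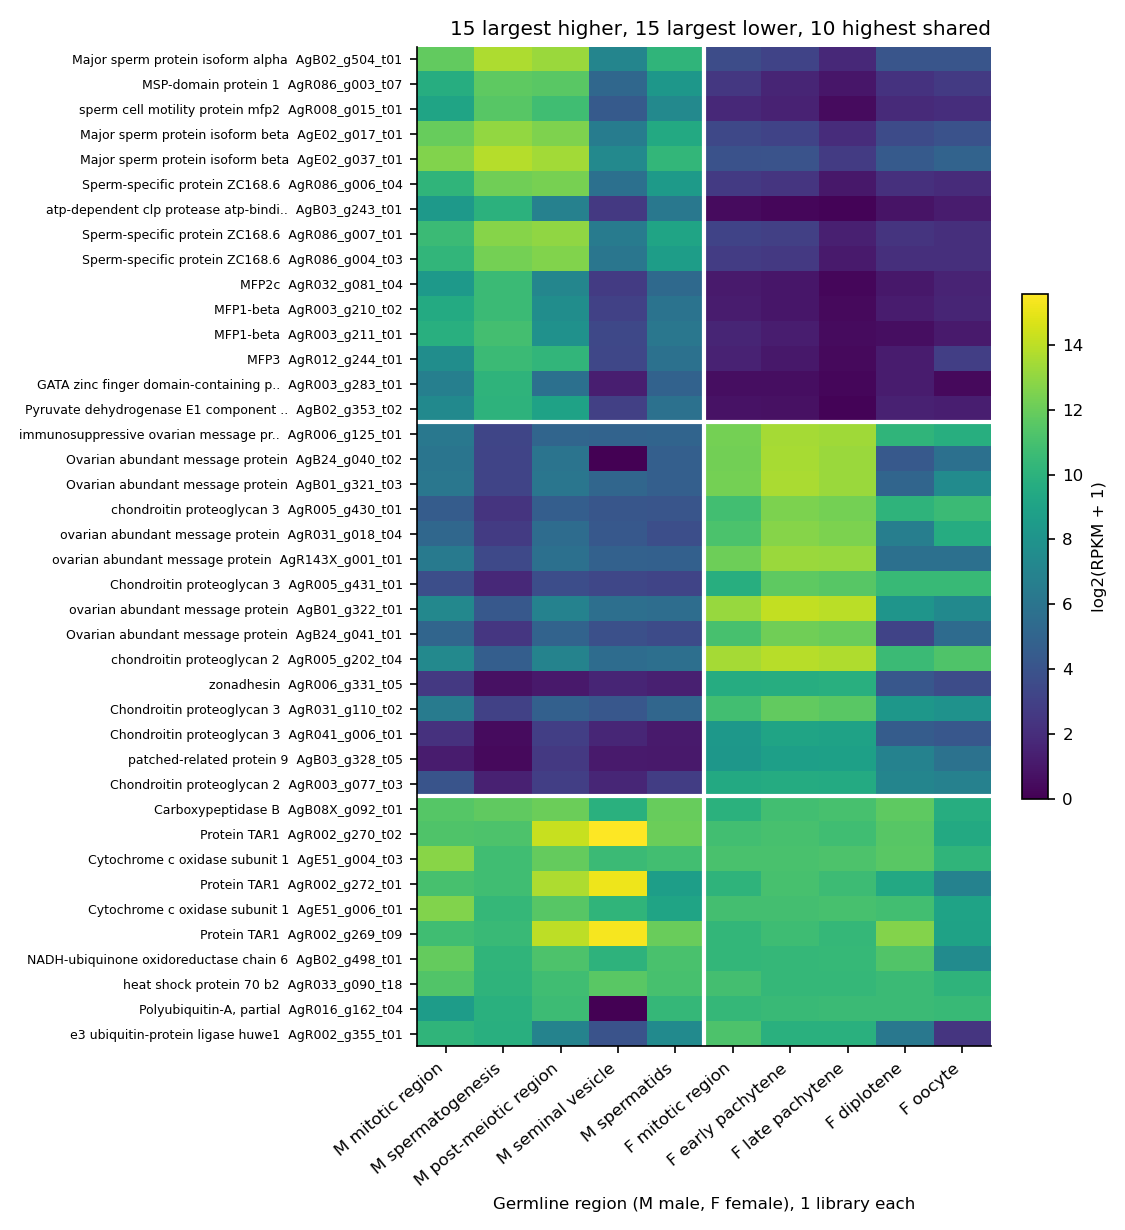
Levels, as log2(RPKM + 1), of the 15 described genes with the largest higher difference, the 15 with the largest lower difference and the 10 shared genes with the highest levels, in rows, in the 10 germline libraries, in columns. The upper block is bright in the first 3 male libraries and dark in all female ones. The middle block is brightest in the female mitotic and pachytene libraries, and the lower block has no sex in which it is dark throughout.

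The lower set was led by messages for the oocyte surface and the eggshell. The most abundant were ovarian abundant messages, a family named for its level in the Ascaris ovary. One of them (AgB01_g322_t01) was at 18.3 RPKM in spermatogenesis, 18233.8 in early and 15538.1 in late pachytene. Among the 15 largest lower differences of described genes, 6 genes carry that name (AgB01_g321 overlaps AgB01_g322 on the other strand), and all of their listed transcripts lie between 4.4 and 18.3 RPKM in spermatogenesis. By the smaller of the 2 differences, the transcript named immunosuppressive ovarian message (AgR006_g125_t01) came first, with 8.5 RPKM against 11089.0 and 10450.9. Against early pachytene alone others were larger, such as AgB24_g040_t02 (−10.35 against −10.19). An isoform of the same gene as the first (AgR006_g125_t02) carries the name chondroitin proteoglycan 2.

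Chondroitin proteoglycans form a layer of the nematode eggshell and of the fluid beneath it. Chondroitin proteoglycan 2 (AgR005_g202_t04, scaffold AgR005) was at 24.2 RPKM in spermatogenesis against 15189.3 and 13544.0, and chondroitin proteoglycan 3 (AgR005_g430_t01) at 4.0 against 5851.4 and 4987.3. Of 51 transcripts so named, 41 were lower under either scaling. None was higher as deposited and 7 were higher rescaled. One of these 7 (AgR031_g108_t01) was at 56.5 RPKM in spermatogenesis against 18.5 and 19.4 and reached 1138.3 in the male post-meiotic region. Chitin synthase 8 (AgB07_g007_t01), which makes the chitin of the eggshell, is marked as eliminated and was at 0.7 RPKM against 285.0 and 299.7. Lipoprotein receptor-related protein 2 (AgR040X_g050_t01), a relative of receptors that take up yolk, was at 0.2 RPKM against 184.1 and 202.1. Zonadhesin (AgR006_g331_t05), known in mammals as a sperm surface protein, was at 0.6 RPKM in spermatogenesis against 811.9 and 892.0, and 27 of the 46 transcripts with that name were lower as deposited and 25 rescaled. Over the whole oocyte, eggshell and yolk uptake list 104 of 206 transcripts were lower and 1 higher as deposited, and 96 and 8 rescaled, with a median difference of −3.13. The 1 higher member was a zona pellucida-like domain protein (AgR017_g242_t01, 93.4 RPKM against 0.0 and 0.0).

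As a list, the machinery of meiosis had no direction that held under both scalings. Of 267 meiotic recombination and DNA repair transcripts, 31 were higher and 60 lower as deposited, and 46 and 5 rescaled (median difference −1.11, or 0.14 rescaled), so the direction of this list turns with the scaling. DMC1 (AgR017_g124_t04), the strand-exchange recombinase of meiosis, was at 1.6 RPKM in spermatogenesis against 25.9 and 22.6. The crossover endonuclease MUS81 (AgB03_g096_t02) was at 0.6 RPKM against 13.2 and 13.4. Both calls are lost on rescaling. For DMC1 the rescaled differences of −1.96 and −1.79 fall short of 4-fold. For MUS81 they stay beyond it at −2.03 and −2.07, and the call is lost to the floor of 10 RPKM. HORMA domain protein 1 (AgR016_g127_t02), of the family that forms the axis of meiotic chromosomes, was at 16.4 RPKM against 54.1 and 52.5 and was not called under either scaling. In the male both DMC1 and HORMA were higher in the library labelled mitotic region, at 13.6 and 40.4 RPKM, than in the one labelled spermatogenesis, so these genes of meiotic prophase were not highest in the male library that the comparison uses. In the female mitotic region they were at 29.3 and 45.1 RPKM. Of the 31 higher transcripts, 28 are named for topoisomerases, which pass DNA strands through each other, including DNA topoisomerase 2 (AgB12_g085_t02, 85.6 RPKM against 2.0 and 2.0). Another, AgR001_g234_t08, was at 62.5 RPKM against 1.8 and 1.5, a call lost when the transcripts of its gene are summed. Without topoisomerases, 3 of 191 transcripts of the list were higher and 51 lower as deposited, and 11 and 5 rescaled. Of the 28 transcripts named for a HORMA domain, 0 were higher and 13 lower as deposited, and 0 and 0 rescaled. Lower under both scalings were the damage-recognition proteins XP-C (AgB09X_g130_t04, 0.8 RPKM against 19.5 and 17.6) and XP-A (AgR018X_g192_t02, 0.6 against 16.8 and 15.2). The transcripts named here for DMC1, MUS81 and HORMA were chosen after their values were seen.

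Chromosome structure and cell cycle genes were divided by member. In the cohesin and condensin list, 16 of 175 transcripts were higher and 21 lower as deposited, and 61 and 13 rescaled (median difference 0.35). The deposited shares are 9.14% and 12%, beside 11.0% and 16.2% over all transcripts. Rescaled they are 34.9% and 7.43%, beside 19.2% and 6.55%. A transcript named for SMC1 (AgB01_g587_t01), a cohesin ring subunit, was at 53.7 RPKM against 3.2 and 3.2. Another transcript of that gene (AgB01_g587_t05, 224.7 RPKM against 7.7 and 5.8) is named for intestinal sucrase and counts in the intestine list below. Rad21 (AgR011_g049_t02), the subunit that closes the ring, was at 1.2 RPKM against 15.9 and 16.7, a call lost on rescaling. Condensin-2 showed both directions, with subunit H2 (AgB06_g077_t02) at 45.5 RPKM against 4.2 and 3.8 and subunit G2 (AgB09X_g091_t04) at 1.2 against 38.5 and 41.5. The G2 gene and the cohesin loader SCC4 (AgR013X_g178_t03, 1.1 RPKM against 45.5 and 45.0) lie on scaffolds named X.

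In the cell cycle list, 33 of 236 transcripts were higher and 35 lower as deposited, and 82 and 12 rescaled. The deposited shares (14% and 14.8%) are near those over all transcripts (11.0% and 16.2%). A cyclin-dependent kinase 1 transcript (AgR008_g202_t03) was at 41.0 RPKM in spermatogenesis against 0.1 and 0.0, and inner centromere protein (AgR002_g288_t02), a partner of aurora kinase, was at 95.3 against 0.1 and 0.1. Cyclin-A (AgB05_g090_t03) was at 0.9 RPKM against 37.4 and 38.3. Aurora kinase B (AgB06_g205_t05) was at 33.6 RPKM against 18.2 and 17.7 and was called higher only after rescaling. Of the 8 transcripts of that gene, 3 were higher under both scalings and 3, this one among them, were shared as deposited. The checkpoint protein MAD2A (AgR022_g084_t01) was shared at 941.2, 823.9 and 872.1 RPKM.

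Regulators of translation included families with members called in both directions. These proteins hold stored messages silent in germ cells or release them, and the list had 43 of 285 transcripts higher and 72 lower as deposited, and 122 and 31 rescaled. GLD-1 is an RNA-binding repressor that in Caenorhabditis elegans keeps female germ cells in meiotic prophase. The name was carried by 7 genes at 10 RPKM or more, of which 3 were higher, 1 was lower and the others were not called under both scalings. The higher members were AgR001_g389_t03 (407.6 RPKM in spermatogenesis against 0.3 and 0.1), its neighbour AgR001_g390_t01 (52.7 against 0.1 and 0.0) and AgE20_g005_t01 on an eliminated gene (57.2 against 8.1 and 8.4). The first of these spans the second on the other strand, so their levels cannot be separated, and the third was at 21.7 RPKM in the female mitotic region. The lower member was AgB07_g097_t02, at 9.0 RPKM against 169.7 and 160.1, and had 125.0 RPKM in the male mitotic region (262.3 in the female one). On the same scaffold AgB07_g163_t02 (14.3 RPKM against 112.2 and 102.7) and AgB07_g096_t03 (4.2 against 49.7 and 51.9) were lower as deposited only, and the last lies within the span of AgB07_g097_t02 on the other strand.

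The CPEB family, which controls the length of poly(A) tails in the cytoplasm, also had members on both sides. CPEB1 transcripts AgR002_g137_t04 and AgR030_g078_t01 were at 96.2 and 84.4 RPKM in spermatogenesis and at 0.1 and 9.0 in early pachytene. CPEB3 transcripts AgE11_g010_t05 and AgB28X_g021_t03, both on eliminated genes, were at 2.0 and 0.8 RPKM in spermatogenesis and at 44.1 and 24.4 in early pachytene. A pair of adjacent Y-box genes, whose proteins coat stored messages, also stood on opposite sides. AgR006_g127_t05 was at 76.8 RPKM against 0.1 and 0.1, and AgR006_g126_t01 at 3.8 against 185.3 and 167.4. For eIF4E-3, a cap-binding translation factor, the eliminated genes AgE49_g003_t01 (88.6 RPKM against 1.1 and 1.1) and AgE49_g004_t04 (35.8 against 0.9 and 0.8) were higher. The second lies within the first on the other strand and cannot be separated from it. The retained gene AgB17_g075_t03 was at 23.2 against 71.4 and 61.7 and was not called under either scaling. Poly(A) polymerase gld-2 was shared in the transcript AgE36_g003_t01 at 22.5, 25.1 and 22.8 RPKM. CCR4-NOT subunit 2 (AgR006_g159_t02), of the complex that shortens poly(A) tails, was at 6.2 RPKM against 356.0 and 345.4.

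The argonaute, histone and chromatin lists also had calls in both directions. Of 140 argonaute and germ granule transcripts, 15 were higher and 19 lower as deposited, and 30 and 10 rescaled. As deposited that is 10.7% and 13.6%, near the 11.0% and 16.2% over all transcripts. Argonaute alg-4 (AgR004_g026_t03), which in Caenorhabditis elegans acts with small RNAs in spermatogenesis, was at 268.9 RPKM against 1.0 and 1.2. Argonaute alg-1 (AgR002_g431_t02), the microRNA argonaute, was at 2.8 RPKM against 63.2 and 65.6. Argonaute wago-1 (AgR032_g057_t03) was shared at 15.3, 21.1 and 23.8 RPKM. Of 59 histone transcripts, 2 were higher and 15 lower as deposited, and 5 and 8 rescaled. An H2B transcript (AgB03_g235_t03) was at 7.6 RPKM against 950.7 and 1037.2, and an H2A transcript (AgR049_g009_t02) at 45.0 against 0.0 and 0.0. Of 624 chromatin modifier and remodeller transcripts, 24 were higher and 92 lower as deposited, and 120 and 28 rescaled. The deposited shares are 3.85% and 14.7%, beside 11.0% and 16.2% over all transcripts. Rescaled they are 19.2% and 4.49%, beside 19.2% and 6.55%. Lysine-specific demethylase 8 (AgB01_g822_t01) was at 0.8 RPKM against 77.7 and 88.6. In the DNA replication list 8 of 354 transcripts were higher and 30 lower as deposited, and 31 and 7 rescaled. Of its 8 higher members, 7 are RNA-directed DNA polymerases of transposons that the word search took in. Origin recognition complex subunit 1 (AgR005_g192_t01) was at 0.7 RPKM against 50.6 and 53.1.

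Several other families had members on opposite sides. Among names carried by 2 or more genes at 10 RPKM or more (n = 1032), 93 had a gene higher and another lower. Of the others, 309 had higher genes and no lower one, and 235 had lower genes and no higher one. Of all 7013 genes at that level, 1895 had a higher and 1257 a lower transcript. Whether unrelated genes would give as many names with both directions was not tested. A shared name, such as zinc finger protein, need not mark a family. Within single genes opposite calls were rare, with 9 genes holding a higher and a lower transcript. Of the 398 tubulin, kinesin and dynein transcripts, which build and travel on microtubules, 74 were higher and 95 lower as deposited, and 103 and 51 rescaled. Tubulin beta-1 (AgR043_g091_t01) was at 149.3 RPKM against 0.1 and 0.1, and kinesin-2 (AgR002_g311_t12) at 0.5 against 407.1 and 386.9. Of 866 channel and carrier transcripts, 115 were higher and 138 lower as deposited, and 159 and 87 rescaled. As deposited these are 13.3% and 15.9%, near the 11.0% and 16.2% over all transcripts. Of 98 innexin transcripts, which form gap junctions, none was higher and 14 were lower as deposited, and 0 and 3 rescaled. The 14 are 14.3% of the list, beside 16.2% lower over all transcripts. Acyl-CoA and fatty acid transcripts numbered 15 higher and 78 lower of 330 as deposited, and 44 and 36 rescaled. Enoyl-CoA hydratase domain-containing protein (AgB06_g052_t01) was at 2.0 RPKM against 627.0 and 564.6.

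Of the housekeeping lists the proteasome had the largest share of higher calls. This complex degrades tagged proteins, and of its 209 transcripts 69 were higher and 3 lower as deposited, and 111 and 0 rescaled (median difference 0.73). Proteasome activator subunit 4, which in mammals acts on histones during spermatogenesis, gave 36 of the 69, among them AgR055_g034_t03 at 192.4 RPKM against 0.4 and 0.4. The other 33 were regulatory subunits, such as AgE11_g006_t02 at 338.5 RPKM against 2.3 and 2.4. The 61 transcripts of the proteolytic core (alpha and beta types) had no call as deposited, with 34 of them shared, and 14 were higher rescaled. Of 792 ubiquitin ligase and hydrolase transcripts, 73 were higher and 112 lower as deposited, and 242 and 34 rescaled. The deposited shares (9.22% and 14.1%) are near those over all transcripts (11.0% and 16.2%). Kelch-like protein 10, a testis ligase adaptor in mammals, had a transcript on an eliminated gene (AgB15X_g001_t07) at 148.8 RPKM against 0.4 and 0.6.

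Ribosomal protein, translation factor, splicing and chaperone lists had more lower than higher calls as deposited and more higher than lower ones after rescaling. The list for oxidative phosphorylation did not turn, with 10 of 258 higher and 111 lower as deposited, and 22 and 23 rescaled (median difference −2.01, or −0.71 rescaled). The lipid-binding subunit of ATP synthase (AgB03_g474_t08) was at 10.7 RPKM against 348.5 and 324.2. Of 340 cytoplasmic ribosomal protein transcripts, 28 were higher and 62 lower as deposited (8.24% and 18.2%), and 32 and 2 rescaled, with 206 then shared. Ribosomal protein L17 had a copy on an eliminated gene (AgE21_g001_t25) at 42.3 RPKM against 0.8 and 0.9 and a retained copy (AgR035X_g027_t01) at 6.3 against 121.5 and 113.9. Translation factors had 26 of 265 higher and 38 lower as deposited, and 50 and 3 rescaled. Their deposited shares (9.81% and 14.3%) are near those over all transcripts (11.0% and 16.2%). Splicing factors had 9 of 324 higher and 50 lower as deposited (2.78% and 15.4%), and 49 and 4 rescaled. Heat shock proteins and chaperonins had 25 of 329 higher and 65 lower as deposited (7.6% and 19.8%), and 52 and 10 rescaled. Of 277 retrotransposon Pol transcripts, which have to be read with care because copies share reads, 39 were higher and 2 lower as deposited, and 83 and 1 rescaled. A putative RNA-directed DNA polymerase (AgR108_g002_t02) was at 548.5 RPKM against 0.3 and 0.1.

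**Figure D3:**
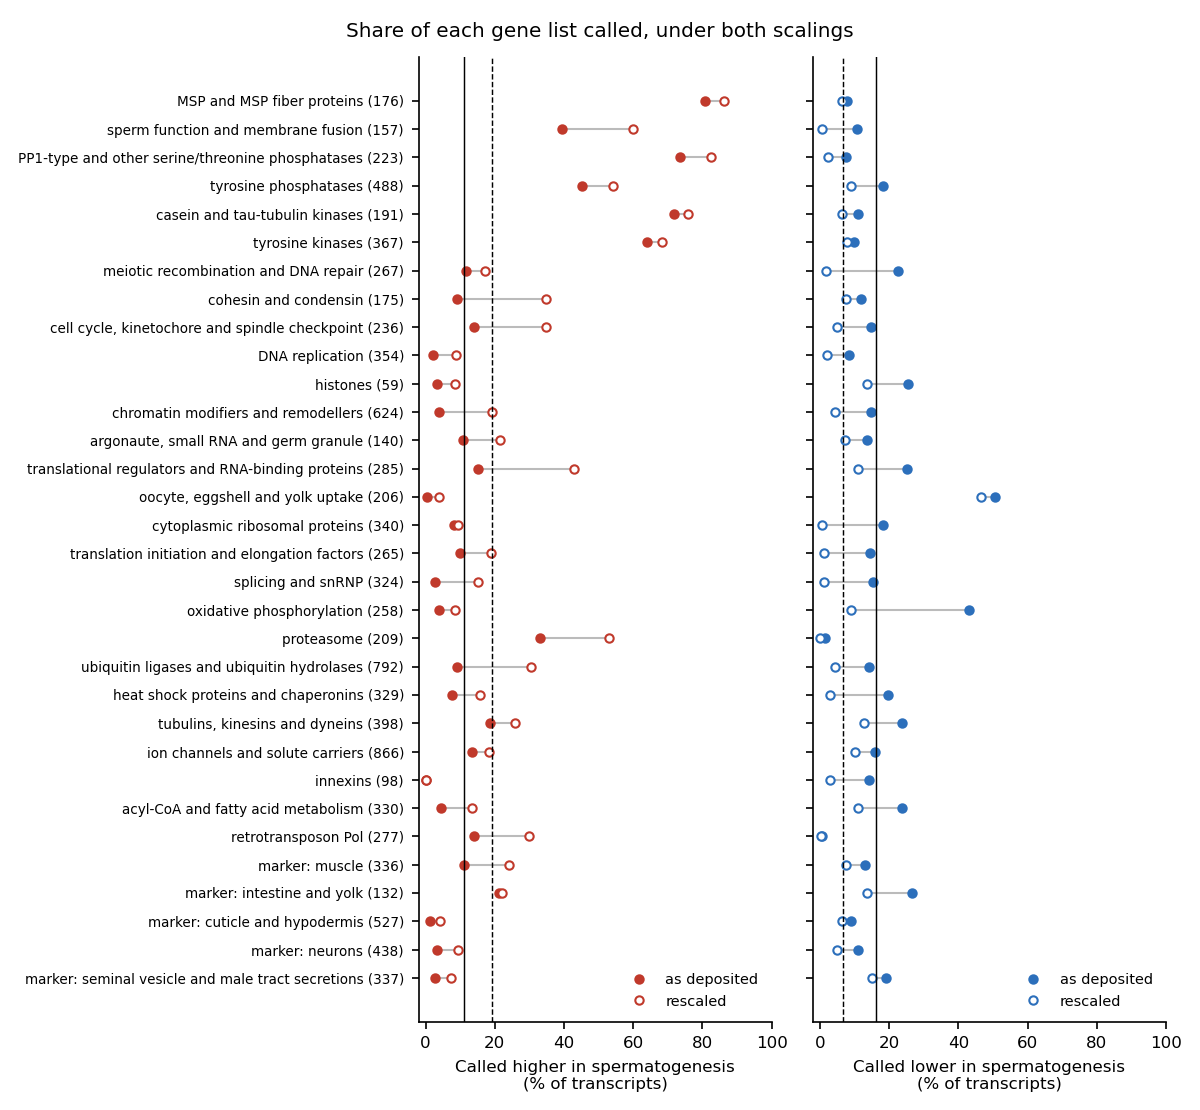
Share of the transcripts of each of the 32 gene lists called higher (left) or lower (right) in spermatogenesis, with the number of transcripts in brackets. Filled points use values as deposited and open points the rescaled values, and the solid and dashed lines give the same shares over all transcripts (11.0% and 19.2% higher, 16.2% and 6.55% lower). The phosphatase, kinase and MSP lists stand far to the right on the left side, and the oocyte list on the right side.

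Shared messages were fewer and depend on the scaling. A transcript was counted as shared when all 3 libraries were at 10 RPKM or more and spermatogenesis was within 2-fold of both pachytene libraries. This held for 2454 transcripts of 700 genes (3.97%) as deposited and for 2755 rescaled (4.46%), but for only 154 transcripts of 70 genes under both scalings. Of 340 cytoplasmic ribosomal protein transcripts, 11 were shared as deposited and 206 rescaled. The examples that follow are shared as deposited, and none of the 10 described genes with the highest levels is shared after rescaling. By the lowest of the 3 values, the first described gene was carboxypeptidase B (AgB08X_g092_t01), which trims amino acids from protein ends. It was at 3499.6 RPKM in spermatogenesis and 1842.0 and 2066.5 in pachytene, and was called higher after rescaling. Polyubiquitin-A (AgR016_g162_t04) was at 945.1, 1515.2 and 1548.3 RPKM and heat shock protein 70 (AgR033_g090_t18) at 1106.9, 1306.3 and 1309.1. The ubiquitin ligase HUWE1 (AgR002_g355_t01) was at 902.9, 926.0 and 919.8 RPKM, and 52 of the 54 transcripts with that name were shared as deposited, whereas 10 were called higher rescaled. HUWE1 was also at 1171.1 and 2328.8 RPKM in the male and female mitotic regions and at 4.2 in the oocyte. Of genes shared under both scalings the highest with a description was an actin-2 transcript (AgR015_g018_t28), of the cytoskeleton, at 297.4, 571.8 and 538.4 RPKM.

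Part of the shared set consists of messages that need caution. Cytochrome c oxidase subunit 1 (AgE51_g004_t03 at 1735.8, 2212.1 and 2418.0 RPKM) is normally encoded by mitochondrial DNA, and all 7 transcripts of oxidative phosphorylation names on scaffold AgE51 were shared. TAR1 is named after a yeast protein encoded opposite the large ribosomal RNA gene, and AgR002_g270_t02 was at 2388.9, 2117.4 and 1768.2 RPKM. The same transcript reached 48228.7 RPKM in the seminal vesicle. Ribosomal RNA was removed with a kit for human, mouse and rat RNA, and its part in these values was not tested.

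Features of the table that played no part in the calls separated the sets. Of 3774 transcripts marked as eliminated from somatic cells, 42.4% were higher and 3.55% lower, against 8.92% and 6.75% of 58046 retained ones. By genes, 355 of 930 eliminated genes had a higher transcript (38.2%) and 32 a lower one. Among transcripts at 10 RPKM or more, in any of the 3 libraries, a filter that many eliminated genes pass only through spermatogenesis, the median in eliminated genes was 29 RPKM in spermatogenesis and 2.8 in either pachytene library. Over all transcripts that passed it was 10.1, 15 and 14.9. The eliminated genes made up 23.6% of the higher set, 3.31% of the lower set and 12.9% of the shared set, against 10.6% of all transcripts at 10 RPKM or more in any of the 3 libraries.

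Scaffolds whose name contains X, which the table does not define, showed the reverse. Of 10689 transcripts on them, 2.98% were higher and 14.2% lower (29.8% as deposited), against 12.6% and 4.95% (13.4% as deposited) of 51131 on other scaffolds. They carried 37.5% of the lower set and 4.69% of the higher set, against 16.9% of all transcripts at 10 RPKM or more. Among transcripts at 10 RPKM or more in any of the 3 libraries, 7.41% on X-named scaffolds and 30.7% elsewhere were higher. Higher transcripts pass that filter through spermatogenesis itself. With it, the share higher ranged from 0 to 27.9% (median 2.11%) over 15 X-named scaffolds with 100 transcripts or more. Over the 52 other scaffolds of that size it ranged from 0 to 73.3% with a median of 29.7%. The ranges overlap. Eliminated transcripts are included in these shares. Of all retained transcripts, 2.33% on X-named and 10.4% on other scaffolds were higher, and 14.3% and 5.08% were lower. Patched-related protein 9 (AgB03_g328_t05, 0.3 RPKM against 432.6 and 464.5) and the ovarian messages on AgB01 and AgB24 show that large lower differences also occurred elsewhere.

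The 5′ end marks differed as well. Nematodes add a spliced leader to the start of many messages by trans-splicing, and the table marks such transcripts and those found with an ordinary cap. Of 4213 transcripts with the cap mark alone, 43.5% were higher and 6.67% lower. Of 23558 with the spliced leader mark alone, 4.25% were higher and 8.74% lower (22.7% as deposited). The marks come from libraries of a mixed sample, so messages rare in that mixture could not be marked, and 46.8% of the higher set has no mark, against 35.2% of all transcripts at 10 RPKM or more. Transcripts without a descriptive name made up 38.2% of the higher set and 15.5% of the lower set, against 19.5%.

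**Figure D4:**
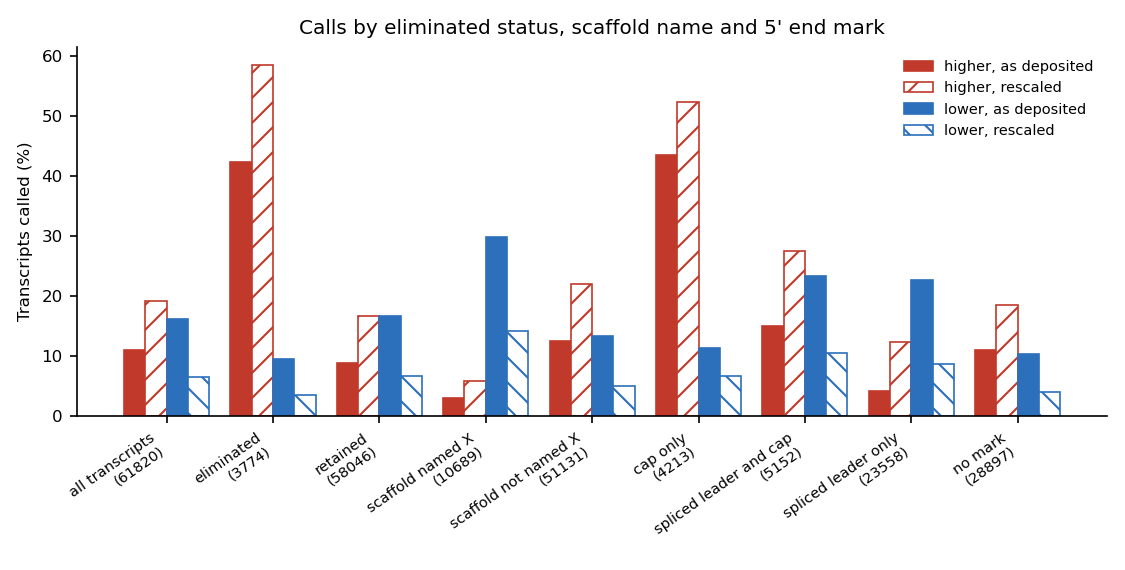
Bars give the percentage of transcripts called higher (red) or lower (blue) in spermatogenesis, for values as deposited (filled) and rescaled (hatched), by eliminated status, scaffold name and 5′ end mark, with the number of transcripts in brackets. Eliminated and cap-only transcripts have the tallest red bars (42.4% and 43.5% as deposited), and X-named scaffolds the tallest blue bar (29.8%).

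The other libraries place these differences along the germline. The male and female mitotic regions share no library with the comparison. Of the 6782 higher transcripts, 4368 (64.4%) were also at least 4-fold higher in the male than in the female mitotic region, as were 4709 of all transcripts (7.62%). The overlap is 92.8% of those mitotic calls. Of the 4050 lower transcripts, 2117 (52.3%) were also lower in the male mitotic region, which is 70.6% of the 2999 such calls (4.85% of all). No higher transcript was lower between the mitotic regions, and no lower one was higher. With the same comparison on rescaled values the shares were 49.1% of higher and 31.9% of lower transcripts, beside 5.85% and 2.46% of all transcripts.

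Within the testis the higher set was followed through the other regions. The set was chosen for its level in spermatogenesis, so a high value there comes from the rule. It had a median of 18.9 RPKM in the mitotic region, 46.5 in spermatogenesis, 6.2 in the post-meiotic region, 0.2 in the seminal vesicle and 1.8 in spermatids, and 6233 of the 6782 transcripts had their highest value of all 10 libraries in spermatogenesis. In the post-meiotic region alpha-MSP had 9492.4 RPKM, with 131.6 in the seminal vesicle and 1142.6 in spermatids. MFP2c (AgR032_g081_t04) went from 1571.3 RPKM in spermatogenesis to 142.8 in the post-meiotic region, and the Clp subunit from 1042.4 to 113.8. In the male mitotic region 41 higher transcripts of 19 genes were under 1 RPKM, a share not counted for transcripts outside the set. Those with a described product include an FMRFamide receptor (AgR008_g268_t01, with 0.8 RPKM there and 21.4 in spermatogenesis) and troponin C (AgR048X_g057_t01, 0.9 and 16.7).

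Whether the library labelled female mitotic region is free of meiotic cells was not tested (DMC1 was at 29.3 RPKM there and HORMA at 45.1). Within the ovary the lower set was already present in that library. It had a median of 34.7 RPKM in the female mitotic region, 36.45 and 36 in pachytene, 11.1 in diplotene and 9 in the oocyte. No member was under 1 RPKM in the female mitotic region, but such low values were not counted for transcripts outside the set. In the male the lower set had a median of 6.8 RPKM in the mitotic region and of 0.8 in spermatogenesis, the library whose low values chose it. The ovarian abundant message AgB01_g322_t01 was at 8978.1 RPKM in the female mitotic region, 271.8 in diplotene and 163.2 in the oocyte. Chondroitin proteoglycan 3 (AgR005_g431_t01) kept 1425.4 RPKM in diplotene and 1419.8 in the oocyte, against 3270.3 in early pachytene.

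**Figure D5:**
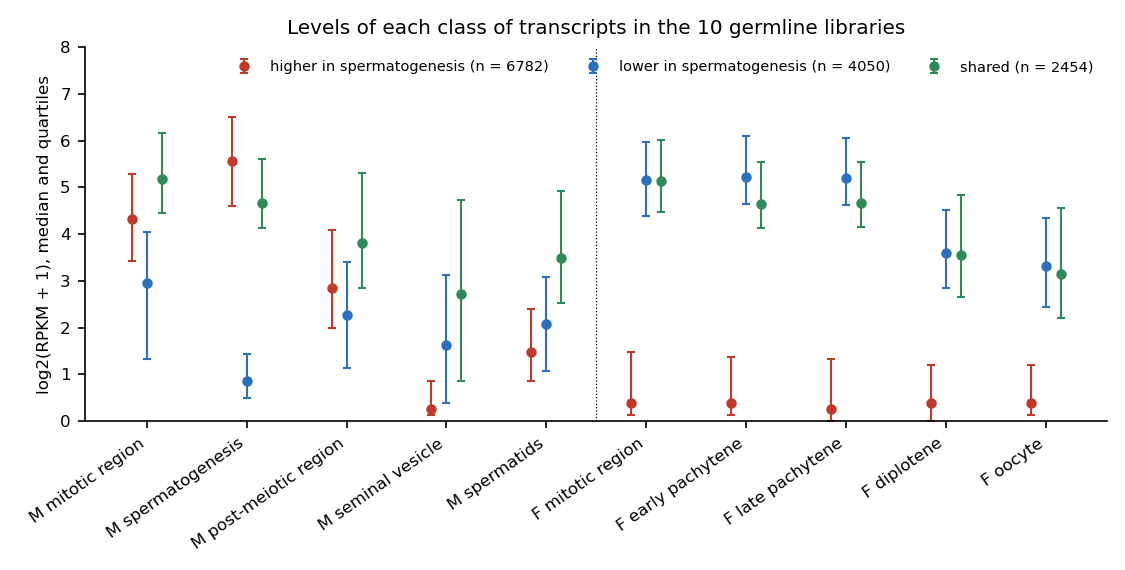
Median and quartiles, as log2(RPKM + 1), of the higher (n = 6782), lower (n = 4050) and shared (n = 2454) transcripts in each of the 10 germline libraries, male (M) left and female (F) right of the dotted line. The bars span transcripts, not replicates. The spermatogenesis and pachytene values chose the sets. The higher set has a median of 18.9 RPKM in the male mitotic region and 0.3 or less in every female library, and the lower set has 6.8 and 34.7 RPKM in the male and female mitotic regions.

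Traces of the most abundant messages of each sex were present in the other. The 99 transcripts at 1000 RPKM or more in spermatogenesis and higher there (46 genes) were in early pachytene at a median of 0.0632% of their male level, with a range from 0.0192% to 10.6%, and 48 of them lay within 1.2-fold of that median. In late pachytene the median was 0.0213%, with 34 of them within 1.2-fold. The 64 transcripts at 1000 RPKM or more in early pachytene that were lower (23 genes) had a median of 0.269% in spermatogenesis, with a range from 0.0681% to 6.73% and none within 1.2-fold of the median. The source of such low values for abundant messages, such as the 7.6 RPKM of alpha-MSP in early pachytene, was not tested.

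Messages named for other tissues were found on both sides. The neuron list summed to 844.2 RPKM in spermatogenesis and to 2603.3 and 2545.8 in pachytene, with 15 of 438 transcripts higher and 48 lower as deposited (41 and 22 rescaled). Of its members 31 were at 0 in all 3 libraries. The list of seminal vesicle and male tract secretions summed to 2092.9 RPKM against 9434.6 and 8207.0, with 9 of 337 higher and 64 lower (25 and 51 rescaled) and 25 at 0 in all 3. Cuticle and hypodermis genes summed to 1322.5 RPKM against 2699.9 and 2241.5, with 6 of 527 higher and 48 lower (22 and 33 rescaled) and 78 at 0. Muscle genes summed to 8062.5 RPKM against 5276.8 and 5225.8, with 37 of 336 higher and 44 lower (81 and 25 rescaled) and 17 at 0. Their deposited shares of 11.0% higher and 13.1% lower are near the 11.0% and 16.2% over all transcripts. Intestine and yolk genes summed to 2023.3 RPKM against 1665.1 and 1707.7, with 28 of 132 higher and 35 lower (29 and 18 rescaled) and 3 at 0. The part of other tissues in the results above was not tested, and many members of these lists are families with germline relatives.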

How the data were processed

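Germline regions of adult worms were dissected, and RNA was extracted with Trizol and made into TotalScript libraries after ribosomal depletion, per the labels' protocols. TopHat2 and Cufflinks are named in the submitters' processing notes, without versions or roles. Genome build, annotation source and strand handling were not given in the sources used here, and positions are those of the table. The authors deposited RPKM values with 1 decimal (0.1), 1 row per transcript, with isoforms as separate rows, so isoforms of a gene share reads. Totals were 1560647.7, 1353382 and 1281715.4 RPKM for spermatogenesis, early and late pachytene, of which the 100 highest transcripts took 40.1%, 33.9% and 31.8%. Steps between low values of short transcripts gave depths of about 30800000, 34400000 and 35000000 reads, with 99.4%, 99.3% and 97.8% of those values then whole, where rounding alone gives 65.3%, 72.4% and 73.5%. At those depths 10 RPKM in a transcript of 1 kb is 308, 344 and 350 reads, with a counting error (SD) of 5.7%, 5.39% and 5.35%. This covers counting error only. The share of transcripts listed at 0 was 11.6%, 14.2% and 15.7%.

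Differences were taken on log2(RPKM + 1), a scale on which low transcripts change less than in truth. Calls, shared transcripts and rescaling were as given with the results. A floor of 10 applied to the rescaled values too. Eliminated status, 5′ end marks and annotations are the table's own. Genes are transcript names without the isoform number. Gene lists (32) match words in the annotation. Genes picked by rule have a product description, with 1 transcript for each gene within a selection. Those picked as higher or lower have a call under both scalings. The rule took the 15 largest each way, the 10 shared transcripts with the highest lowest value, and up to 4 members per list. Transcripts picked as shared or for their level can carry a call under 1 scaling only, as carboxypeptidase B does. Members of lists are the largest called differences each way, then the highest levels. Differences were ranked by the smaller of the 2, against early or late pachytene. DMC1, MUS81, HORMA, rad21, cyclin-dependent kinase 1, aurora kinase B, MAD2A, spe-4, fer-1, the testis-specific kinase, class P protein 19, the pyruvate dehydrogenase E2 subunit, actin-2, the hypothetical proteins, chitin synthase 8, lipoprotein receptor-related protein 2, wago-1, gld-2, the eIF4E-3, CPEB1 and CPEB3 members not picked by the rule, the other GLD-1 genes and the second Y-box gene were chosen after their values were seen, as were the subsets of lists. The members and lists were chosen with earlier results of these data known. Changes planted well beyond 4-fold in simulated copies of 1 library were recovered by the call rule, which checks the code only. The copies held no shift in RNA composition and no reads shared between isoforms or overlapping genes. Work used Python 3.11.15, numpy 2.4.6, pandas 2.3.3 and matplotlib 3.10.9.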

Additional observations from a re-analysis of the deposited data

How the results depend on the processing

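With 1 library per region there is no replicate to leave out and no measured error, and depth limits only the lowest values. No paired analysis was possible because each region has 1 library. Rescaling by median ratios moved the counts from 6782 higher and 10035 lower to 11899 and 4050, turned the balance from 40.3% to 74.6% higher, and turned the balance of 18 of the 32 gene lists. A 2-fold threshold turned 2 lists and no other alternative turned any. The cause of the shift was not tested. Removing the 100 highest transcripts left 40.1% higher. Summing per gene gave 2061 higher and 3750 lower genes with 1158 shared, and the marked best-expressed transcript alone gave 1673, 2667 and 523, with genes in place of transcripts as units. Leaving out transcripts at exactly 0 left 4451 higher, because that removes rows. A pseudocount of 0.1, no filter, a 2-fold threshold and either pachytene library alone kept both counts within 1.5 times. Shared transcripts numbered 9064 with a floor of 1 RPKM and 1605 within 1.5-fold. With rescaling, the share lower was 3.55% of eliminated, 6.75% of retained, 14.2% of X-named, 4.95% of other, 6.67% of cap-only and 8.74% of spliced-leader-only transcripts. The share higher was 16.7% of retained, 5.89% of X-named, 22.0% of other and 12.3% of spliced-leader-only transcripts. Summed per gene, 17.3% of cap-only genes were lower. Of the named calls, 5 were lost on rescaling and 1 when summed per gene, and none reversed under any alternative. The 5 were among transcripts named outside the selection rule. Genes that the rule picked as higher or lower needed a call under both scalings and large differences, so their stability is no check of the calls.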
